A study of Mus musculus with 4 samples.

Results

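The unfolded protein response and the secretory pathway were followed in laser-captured mouse Paneth cells through 37 member genes, chosen by name as sensors, transcription factors, chaperones and parts of the translocation machinery. For 36 of the 37, at least 1 probe set named that gene and no other. Each gene is represented by the probe set with the highest mean signal over the 4 arrays, among 18194 genes measured in this way. All 36 also passed the filter on low signal, which left 12111 genes in all. Sec61g shared its probe set with the predicted genes Gm11575 and Gm10177, so it is not counted among the measured members.

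The cells came from the small intestines of male NMRI mice aged 8 weeks. The 2 conventionalized arrays represent mice that were raised germ-free and then received, for 10 days, the intestinal microbes of a conventionally raised mouse. The 2 germ-free arrays represent mice kept germ-free throughout. In each group, RNA from 3 mice was pooled and 2 aliquots of 10 ng were amplified, labelled and hybridised separately. Both arrays of a group therefore repeat 1 pool, and the p-values below measure only the spread of amplification and hybridisation. Variation between mice is not measured. Because captured tissue was used, fewer cells of a type and less RNA per cell cannot be told apart.

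Proteins bound for secretion enter the endoplasmic reticulum (ER) through the Sec61 channel, lose their signal peptide and are folded by chaperones and disulfide isomerases. When unfolded protein accumulates, 3 membrane sensors respond: IRE1 splices the Xbp1 mRNA, ATF6 is cut to release a transcription factor, and PERK slows translation while favouring synthesis of ATF4. Paneth cells export large amounts of antimicrobial protein and hold a dense ER, and deletion of Xbp1 from mouse intestinal epithelium is known to deplete them.

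The label of the cells was checked against 8 Paneth cell markers, all of which were measured. Their summed signal was 291899 and 675189 on the conventionalized arrays and 65600.5 and 146259 on the germ-free arrays. One by one, all 8 were higher in conventionalized cells (median log2 difference 1.91). For 7 of them the groups did not overlap (87.5%, beside 15.9% of all genes tested). The largest difference was that of Reg3g (log2 4.90, limma adjusted p = 2.92e-18). Goblet cell markers were also present, with a summed signal of 84146.9 and 172933 in conventionalized cells and 40597.8 and 77668.9 in germ-free cells. Enterocyte markers summed to 101404 and 245768 in conventionalized cells, against 83138.3 and 156055 in germ-free cells. One by one they were divided, with 3 of 8 higher in conventionalized cells and 5 lower (median log2 difference -0.28). The largest difference was that of Apoc3, which was lower in conventionalized cells (log2 -2.16, limma adjusted p = 0.00332). Plasma cells, which are rich in secretory machinery, were represented by Igha, at 6273.3 and 7987.8 in conventionalized cells and 994.2 and 1644.2 in germ-free cells (limma log2 difference 2.44 ± 0.44 SE). The 7 measured plasma cell markers summed to 10749 and 11336.6 in conventionalized cells and 4438.9 and 5206.1 in germ-free cells. Igha had the largest difference of the 6 that were tested, and their median was 0.21, with 5 above 0 and 1 below. Jchain was also higher without overlap, at 971.0 and 983.7 in conventionalized cells and 618.6 and 402.3 in germ-free cells (log2 0.93). Mzb1, Prdm1 and Irf4 differed by 0.13, 0.22 and 0.21 with overlapping groups, and Sdc1 by -0.18. The plasma cell receptor Tnfrsf17 lay between 3.3 and 28.7 on all arrays. The 6 measured exocrine pancreas markers summed to 359.5 and 923.8 in conventionalized cells and 795.4 and 394.9 in germ-free cells, and the brightest, Cela1, read 146.6 to 396.9. The contribution of these other cell types to the values below was not tested.

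No member passed the test of a difference between the pools. With limma and Benjamini-Hochberg adjustment over all 22491 probe sets, 0 of the 36 members were called, where 0.333% of all probe sets tested were called. An unadjusted p under 0.05 was obtained for 2 members, Creld2 and Ddit3. The median log2 difference (conventionalized minus germ-free) was -0.01 over the members and 0.00 over all genes tested. Of the members, 17 had a difference above 0 and 19 below. At 30 of the 36 the difference was smaller than the gap between duplicate arrays in at least 1 pool, a share of 83.3% beside 80.5% of all genes tested.

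Both conventionalized arrays lay above both germ-free arrays for 6 members, which is 16.7% of those measured, against 15.9% of all genes tested. They lay below for 5 members, or 13.9%, against 16.1% of all genes. Both shares are near the background. No member was at least 2-fold apart in all pairs of arrays, a criterion met by 2.49% of all genes. The 95% interval of the difference excluded both a 2-fold rise and a 2-fold fall for 5 members only, so moderate differences in most members were not resolvable with 2 arrays per group.

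**Figure D1:**
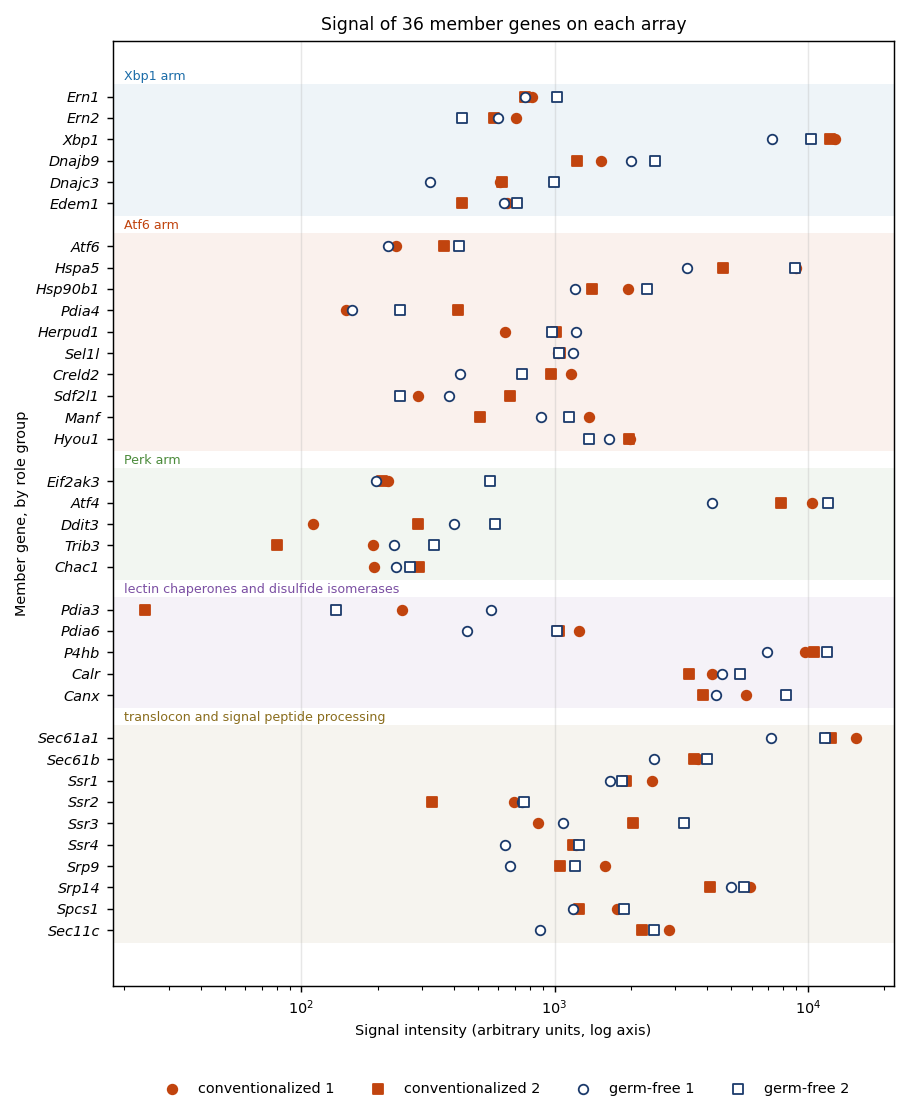
Signal intensity (horizontal log axis, arbitrary units) of the 36 measured members on each of the 4 arrays, in 5 role groups. Filled red symbols are the conventionalized arrays and open blue symbols the germ-free arrays; for 25 of 36 genes the groups overlap, and germ-free 1 (open circles) often lies left of germ-free 2 (open squares).

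The IRE1 and Xbp1 arm held 6 members. Ern1, which encodes the widely expressed sensor IRE1 alpha, had a signal of 817.0 and 764.8 in conventionalized cells and 762.5 and 1020.2 in germ-free cells. Ern2 encodes IRE1 beta, the form restricted to mucosal epithelium, and had 706.5 and 575.2 in conventionalized cells and 600.6 and 429.8 in germ-free cells. The groups overlapped for both sensors, with log2 differences of -0.15 ± 0.43 for Ern1 and 0.31 ± 0.45 for Ern2 (SE). At the 2 dimmer tested probe sets of Ern1 both conventionalized arrays were below both germ-free arrays, with differences of -1.16 and -1.13 that were not called.

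Xbp1, the transcription factor whose mRNA IRE1 splices, had a signal of 12842.6 and 12216.1 in conventionalized cells and 7244.6 and 10271.2 in germ-free cells. The groups did not overlap and the conventionalized cells were higher, by 0.54 ± 0.58 on the log2 scale, and the gene was not called (limma adjusted p = 0.999). Leaving out germ-free replicate 1 gave 0.29 and leaving out replicate 2 gave 0.79. Where the probes lie on the spliced and unspliced forms was not examined, and the forms were not separated here. A second Xbp1 probe set read 1026.6 and 1167.6 in conventionalized cells against 660.1 and 566.2 in germ-free cells, a log2 difference of 0.81. The remaining probe sets differed by 0.28 and -0.07, so the 4 probe sets ranged over 0.88 log2 units.

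Dnajb9 (ERdj4), a BiP co-chaperone and a target of Xbp1, went the other way. Its signal was 1532.7 and 1225.4 in conventionalized cells and 1999.2 and 2484.3 in germ-free cells, a log2 difference of -0.69 ± 0.42. Each conventionalized array was below each germ-free one, and the difference exceeded the gap between duplicates in either pool, but it was not called (limma adjusted p = 0.999). Edem1, which routes misfolded glycoproteins to degradation, differed by -0.33, and Dnajc3 (p58IPK), an ER co-chaperone that restrains PERK, by 0.10. Duplicates of Dnajc3 differed 2.89-fold in the germ-free pool. Its 2 other tested probe sets were below 0, at -0.63 with both conventionalized arrays lower and at -0.17 with overlapping groups. The arm as a whole had 3 members above 0 and 3 below, with a median of -0.03. This median was -0.38 with germ-free replicate 1 left out and 0.07 with replicate 2 left out.

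The ATF6 arm held 10 members, assigned as the sensor itself or as ER proteins that ATF6 is known to induce, many of them together with Xbp1. Atf6 had a signal of 235.9 and 364.9 in conventionalized cells and 220.5 and 419.3 in germ-free cells, so both conventionalized arrays lay between the germ-free ones. The log2 difference was -0.05 ± 0.53.

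Hspa5 encodes BiP, the Hsp70 chaperone of the ER lumen that also holds the sensors inactive. Its signal was 8950.3 and 4634.9 in conventionalized cells and 3350.7 and 8925.3 in germ-free cells. In each pool 1 array was high and the other far lower, and the log2 difference of 0.23 ± 0.50 was smaller than the gap in either pool. The other Hspa5 probe sets differed by -0.06 and -0.30. Hsp90b1 (Grp94), the Hsp90 of the ER, had 1955.2 and 1408.1 in conventionalized cells and 1204.3 and 2325.0 in germ-free cells. Its germ-free arrays lay on either side of both conventionalized arrays, with a difference of -0.01 ± 0.42.

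Creld2, a secreted ER protein with isomerase activity, had the largest difference in the ATF6 arm. Its signal was 1160.3 and 971.0 in conventionalized cells and 421.4 and 743.9 in germ-free cells, a 1.84-fold difference (log2 0.88 ± 0.43) that was not called (limma adjusted p = 0.936). The conventionalized cells were higher without overlap. With germ-free replicate 1 left out, the log2 difference was 0.50. Hyou1 (Grp170), the nucleotide exchange factor of BiP, also had both conventionalized arrays higher, at 1986.8 and 1962.8 against 1636.3 and 1371.9 in germ-free cells, a log2 difference of 0.39 ± 0.42.

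The other members of the ATF6 arm overlapped between groups. Sdf2l1, a partner of BiP, differed by 0.48 and Pdia4 (ERp72), a disulfide isomerase, by 0.31. Manf, a secreted protein retained in the ER, differed by -0.25, and Sel1l, the adaptor of the Hrd1 ubiquitin ligase, by -0.09. Herpud1, an ER membrane protein of the degradation pathway, gave opposite answers at its 2 probe sets. The one with the higher mean read 637.6 and 1015.4 in conventionalized cells and 1220.3 and 979.0 in germ-free cells (log2 -0.43), while the other read 681.8 and 666.8 against 293.1 and 435.3 (log2 0.86). The arm had 5 members above 0 and 5 below, and its median was 0.11, or -0.14 and 0.32 when germ-free replicate 1 and then 2 was left out.

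Some of the members carry a known binding element of ATF6 and XBP1 in their promoters, and those sequences are shown here. The ER stress response element (ERSE) is spelled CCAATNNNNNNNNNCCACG, in which NF-Y binds the first 5 letters and ATF6 or XBP1 the last 5. It was searched on both strands of the RefSeq promoter windows (build GRCm38.p6), from 250 bases before to 50 after the annotated start, which matched 30 of the 37 members by symbol. The element was found in 7 of the 30 (23.3%), of which Hspa5, Hsp90b1 and Creld2 belong to the ATF6 arm, and in 0.119% of all 32851 windows. The shorter ERSE-II, in which ATTGG and CCACG stand 1 base apart, was found in Herpud1 alone among the members and in 0.0365% of all windows. Because the members were chosen by name as genes of this response, these shares are a description and were not tested. In the sequences that follow, written 5′ to 3′ on the strand of the gene, capitals mark the element with 10 bases on either side. Where it lies in reverse orientation it begins with CGTGG.

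Hspa5 (chr2:34772015-34772053, plus strand): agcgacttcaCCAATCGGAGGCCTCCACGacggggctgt
Hsp90b1, distal copy (chr10:86705628-86705666, minus strand): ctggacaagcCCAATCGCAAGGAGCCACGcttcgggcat
Hsp90b1, proximal copy in reverse (chr10:86705523-86705561, minus strand): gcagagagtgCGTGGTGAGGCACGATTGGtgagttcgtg
Calr, in reverse (chr8:84847065-84847103, minus strand): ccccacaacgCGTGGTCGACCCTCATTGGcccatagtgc
Canx (chr11:50325790-50325828, minus strand): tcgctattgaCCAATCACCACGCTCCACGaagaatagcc
Pdia6 (chr12:17266481-17266519, plus strand): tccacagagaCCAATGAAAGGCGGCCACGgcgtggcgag
Dnajc3 (chr14:118937817-118937855, plus strand): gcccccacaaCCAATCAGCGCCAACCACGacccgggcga
Creld2, in reverse (chr15:88819510-88819548, plus strand): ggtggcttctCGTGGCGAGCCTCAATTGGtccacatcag
Herpud1, ERSE-II (chr8:94386367-94386397, plus strand): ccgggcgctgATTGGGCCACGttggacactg

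Counted from the annotated start, the first base of the ERSE was at position -65 in Hspa5, -162 in Calr and -212 for the distal copy in Hsp90b1. The Hspa5 promoter shows the element in its context, a GC-rich stretch ending just before the start, with the ERSE in capitals (chr2:34771840-34772089, plus strand):
Hspa5: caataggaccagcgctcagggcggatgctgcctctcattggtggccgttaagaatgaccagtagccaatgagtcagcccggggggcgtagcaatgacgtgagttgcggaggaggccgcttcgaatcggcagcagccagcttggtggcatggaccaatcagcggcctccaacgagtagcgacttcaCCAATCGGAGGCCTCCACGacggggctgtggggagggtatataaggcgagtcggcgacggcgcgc

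The 8 members with an ERSE or ERSE-II did not share a direction between the pools. Of these, 4 had a log2 difference above 0 and 4 below, from -0.43 for Herpud1 to 0.88 for Creld2, with a median of 0.04. The 21 other measured members with a window had a median of -0.07, with 9 above 0 and 12 below. A match to these letters describes the sequence and does not show that a factor was bound. The XBP1 element was searched on both strands in the exact spelling TGACGTGG only. In that spelling it matched no member window, and 0.676% of all windows held it. The core ACGTG, which lies within it, was found in 12 of the 30 member windows (40%) and in 19.6% of all windows. Other spellings of the whole element were not searched.

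**Figure D2:**
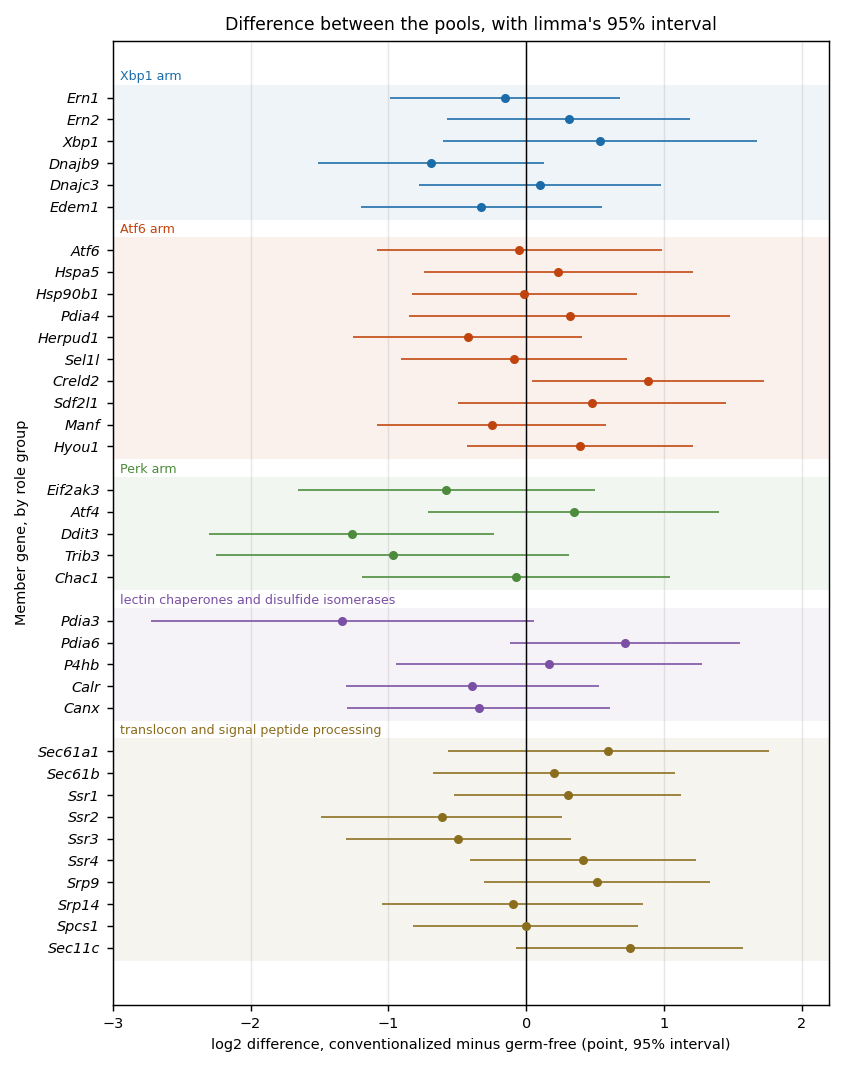
Difference between the pools for each of the 36 measured members (log2, conventionalized minus germ-free, with limma's 95% interval), in 5 role groups. All intervals but those of Creld2 and Ddit3 include 0, and the Perk arm has 4 of its 5 points left of 0.

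PERK and its downstream factors made up an arm of 5 members. Eif2ak3, which encodes PERK, had a signal of 219.6 and 207.6 in conventionalized cells and 197.4 and 554.9 in germ-free cells. Only 1 germ-free array stood apart, and the log2 difference was -0.58 ± 0.55. Atf4, the transcription factor that is translated when PERK is active, read 10361.9 and 7808.7 in conventionalized cells and 4179.5 and 11978.0 in germ-free cells. The germ-free duplicates of Atf4 lay 2.85-fold apart on either side of the conventionalized ones, with a difference of 0.34 ± 0.54. A second Atf4 probe set, at 1073.7 and 1288.4 in conventionalized cells and 927.5 and 1000.9 in germ-free cells, differed by 0.28.

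Ddit3 encodes CHOP, a pro-apoptotic factor induced by ATF4. Its signal was 111.6 and 288.7 in conventionalized cells and 402.3 and 580.3 in germ-free cells. The conventionalized cells were lower without overlap, at 0.416-fold (log2 -1.26 ± 0.53, 95% interval -2.30 to -0.23). The gene was not called (limma adjusted p = 0.714), and the difference was -0.69 without conventionalized replicate 1.

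Trib3, a pseudokinase that CHOP and ATF4 induce, read 191.9 and 80.2 in conventionalized cells and 231.3 and 334.3 in germ-free cells. Again the groups did not overlap, with a log2 difference of -0.97 ± 0.65 that was -0.47 without conventionalized replicate 2. Chac1, a glutathione-degrading enzyme induced by ATF4, read 193.7 and 291.6 in conventionalized cells and 237.5 and 267.6 in germ-free cells, and the groups overlapped (log2 -0.07). In the arm as a whole 4 of 5 members were below 0, as were 6053 of the 12111 genes tested. Its median of -0.58 rested on the germ-free duplicates: it was -1.21 when replicate 1 was left out and 0.00 when replicate 2 was. The composite C/EBP-ATF response element TGATGCAA, which ATF4 is known to bind, was searched on both strands of the same windows. It was found in Chac1 and Herpud1 among the members and in 0.895% of all windows, and capitals mark it:
Chac1, in reverse (chr2:119351039-119351066, plus strand): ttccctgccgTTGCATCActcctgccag
Herpud1, in reverse (chr8:94386307-94386334, plus strand): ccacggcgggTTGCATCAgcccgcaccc

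The 16 tested regulators and ATF4 targets that are not members had 13 differences below 0 and 3 above, and none was called. Both conventionalized arrays were below both germ-free arrays for 9 of them (56.2%, beside 16.1% of all genes) and above for 2. The list was chosen with earlier results of these data known, so these shares are a description and were not tested. The median of this list was -0.58, and it lay between -0.40 and -0.56 with any 1 array left out. The largest difference was that of Asns, asparagine synthetase, an ATF4 target of amino acid shortage. Asns read 2765.3 and 2233.0 in conventionalized cells and 1045.1 and 1063.1 in germ-free cells, at least 2-fold higher in every pair of arrays (log2 1.21 ± 0.42, limma adjusted p = 0.336).

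The following genes of the same list were picked after their values were seen. Nupr1, a stress-induced chromatin protein, had 3262.1 and 1973.3 in conventionalized cells and 804.0 and 1455.2 in germ-free cells, a log2 difference of 1.20. Atf3, a factor induced downstream of ATF4, read 338.1 and 502.3 in conventionalized cells against 807.9 and 640.1 in germ-free cells (log2 -0.76). Atf5 read 279.3 and 94.8 in conventionalized cells against 358.3 and 405.9 in germ-free cells (log2 -1.06). Of the ATF4 targets described here, Asns and Nupr1 thus lay above 0 and Ddit3, Trib3, Chac1, Atf3 and Atf5 below it. These genes do not stand for the whole list of regulators and ATF4 targets, in which 13 of the 16 tested were below 0.

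Lectin chaperones and disulfide isomerases, which fold glycoproteins and form their disulfide bonds, held 5 members. P4hb, protein disulfide isomerase itself, had a signal of 9718.6 and 10596.1 in conventionalized cells and 6914.9 and 11883.6 in germ-free cells. The germ-free duplicates again lay outside the conventionalized ones, with a difference of 0.16 ± 0.57. Pdia6, a further isomerase, read 1251.4 and 1040.7 in conventionalized cells and 451.9 and 1021.6 in germ-free cells, a difference of 0.72 ± 0.42 that was 0.16 without germ-free replicate 1.

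Calr encodes calreticulin, a calcium-binding lectin chaperone. Its signal was 4188.7 and 3409.8 in conventionalized cells and 4573.5 and 5386.8 in germ-free cells, with both conventionalized arrays lower (log2 -0.39 ± 0.47, not called). All 3 Calr probe sets had a difference between -0.43 and -0.39, and in each of them the groups did not overlap. The membrane-bound relative Canx (calnexin) read 5714.6 and 3843.8 in conventionalized cells and 4346.9 and 8175.1 in germ-free cells, which overlap, and differed by -0.35. Its dimmer probe sets differed by -0.69 and -1.11.

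Pdia3 (ERp57), the isomerase that works with calreticulin and calnexin, had the widest difference of any member and the least certain one. Its signal was 249.4 and 24.2 in conventionalized cells and 563.3 and 137.1 in germ-free cells, with duplicates 5.01-fold and 3.52-fold apart. The log2 difference was -1.34 ± 0.71. The other Pdia3 probe set, of similar mean signal (224.05 against 243.5), differed in the other direction, by 0.72. It read 224.0 and 354.7 in conventionalized cells and 149.5 and 168.0 in germ-free cells, higher without overlap. In this group 2 members were above 0 and 3 below, with a median of -0.35, or 0.11 without germ-free replicate 2.

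Targeting and translocation, the entry step of the pathway, was measured through 10 members. Sec61a1, the pore-forming subunit of the channel, had a signal of 15471.3 and 12348.3 in conventionalized cells and 7158.6 and 11659.8 in germ-free cells. Conventionalized cells were higher without overlap, by 0.60 ± 0.59 on the log2 scale, and there was no call. The difference was 0.24 without germ-free replicate 1 and 0.95 without replicate 2. Its 5 tested probe sets ranged from -0.14 to 1.17. Sec61b, a small subunit, read 3694.9 and 3550.2 in conventionalized cells and 2476.3 and 3986.3 in germ-free cells, and the groups overlapped (log2 0.20 ± 0.45). The probe set that Sec61g shares with Gm11575 and Gm10177 read 2052.1 and 2150.6 in conventionalized cells and 1149.8 and 1657.3 in germ-free cells, and was not called either.

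Sec11c, a catalytic subunit of signal peptidase, had the largest difference of the translocation group, with 2841.5 and 2211.6 in conventionalized cells and 878.3 and 2463.8 in germ-free cells. One germ-free array lay among the conventionalized ones and the other far below. The difference of 0.75 ± 0.42 was therefore 0.02 without germ-free replicate 1. Spcs1, a non-catalytic subunit of the same complex, differed by -0.00.

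The translocon-associated protein complex, which helps insert nascent chains, had members on both sides of 0. Ssr1 differed by 0.30, with both conventionalized arrays higher, and Ssr4 by 0.41 with overlapping groups. The tested probe sets of both genes lay on both sides of 0, from -0.35 to 0.99 for Ssr1 and from -0.84 to 0.41 for Ssr4. Ssr2 differed by -0.61 (-0.11 without conventionalized replicate 2), with 689.5 and 328.4 in conventionalized cells against 743.3 and 754.1 in germ-free cells, and Ssr3 by -0.49. Srp9 and Srp14, which pair in the part of the signal recognition particle that pauses translation, differed by 0.51 and -0.10 with overlapping groups. The other tested Srp9 probe set differed by -0.07. The translocation group had 6 members above 0 and 4 below. Its median of 0.25 became -0.10 when germ-free replicate 1 was left out and 0.46 when replicate 2 was.

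The duplicates of a pool also differed in order. Germ-free replicate 2 was above germ-free replicate 1 for 30 of the 36 members (83.3%), beside 45.6% of all genes tested. The median log2 gap between these duplicates was 0.52 over the members and -0.08 over all genes. The members are bright, with 32 of the 36 among the brightest 25% of probe sets. Summed over all genes tested, the signal was also lower on germ-free replicate 1 (9.93e+06) than on replicate 2 (1.29e+07). Whether the order of the members differs from that of other bright genes was not tested. The order held for all 10 members of the translocation group, all 5 of the Perk arm, 5 of 6 in the Xbp1 arm and 4 of 5 folding members, but for 6 of 10 in the ATF6 arm. Beyond the members, germ-free replicate 2 was above replicate 1 for 62 of the 89 further pathway genes (69.7%, median gap 0.26). Of the tested markers it was above for 7 of 8 of Paneth cells, 8 of 8 of enterocytes and 5 of 6 of goblet cells. The counts were 4 of 6 for enteroendocrine, 2 of 6 for plasma cell and 0 of 2 for exocrine pancreas markers. In the conventionalized pool, replicate 2 was above replicate 1 for 10 of 36 members (27.8%, beside 50.5% of all genes), with a median gap of -0.27, while in the ATF6 arm the count was 5 of 10. Centred per gene, the median of the members was 0.16 and -0.02 on conventionalized replicates 1 and 2, and -0.30 and 0.27 on germ-free replicates 1 and 2. Over all 22491 probe sets tested, the conventionalized duplicates were the less alike. The SD of their log2 difference was 1.05, against 0.83 for the germ-free duplicates. Conventionalized replicate 2 correlated with the other arrays at 0.75 to 0.78, and those arrays correlated with each other at 0.85 to 0.89.

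The 3′ to 5′ signal ratio of the Gapdh control probe sets, a measure of how far the amplified RNA was shortened, was 9.39 and 6.43 on the conventionalized arrays and 6.29 and 10.3 on the germ-free arrays. It was thus highest on the 2 arrays where the members were highest. The Actb ratio, at 63.7 and 116 in conventionalized and 39.2 and 44.9 in germ-free samples, did not follow this order. The part of RNA shortening in the members' values was not tested. The conventionalized arrays were processed on fluidics station number 2 and the germ-free arrays on number 1, and the effect of station cannot be told apart from that of group.

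**Figure D3:**
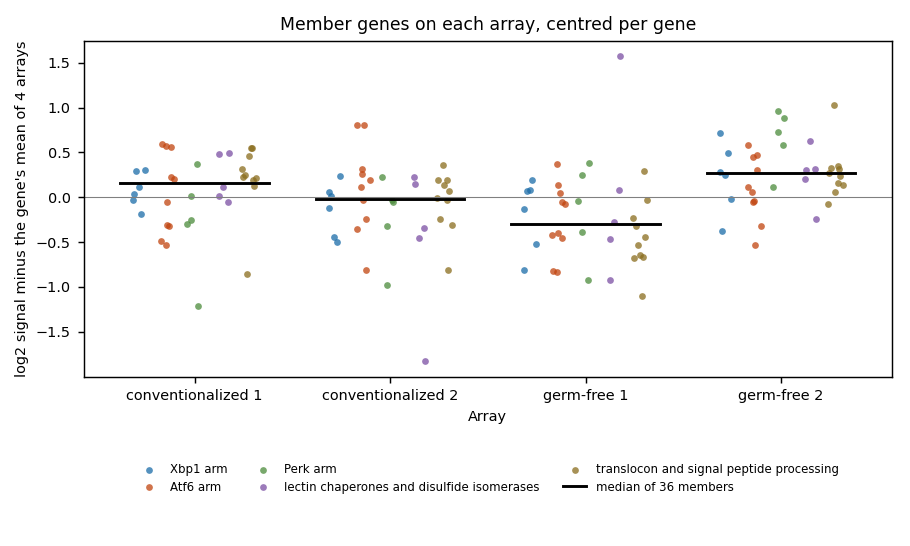
Log2 signal of the 36 members on each array, minus the gene's mean of the 4 arrays, coloured by role group. Black lines are medians, at 0.16 and -0.02 on the conventionalized arrays and at -0.30 and 0.27 on the germ-free arrays, so the members' medians lie furthest apart between the germ-free duplicates.

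At 6 members the difference between the pools exceeded the gap between duplicates in both pools. At the other 30 it did not (83.3%, beside 80.5% of all genes tested), so the count of 6 is near the background. The 6 were Xbp1, Creld2 and Hyou1, higher in conventionalized cells, and Dnajb9, Ddit3 and Calr, lower in conventionalized cells. Of the 21 members with several tested probe sets, 11 had all of them on one side of 0 and 10 had them on both sides. Among the 6, Calr and Hyou1 were of the first kind and Xbp1 of the second, while Creld2, Dnajb9 and Ddit3 had 1 tested probe set each.

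**Figure D4:**
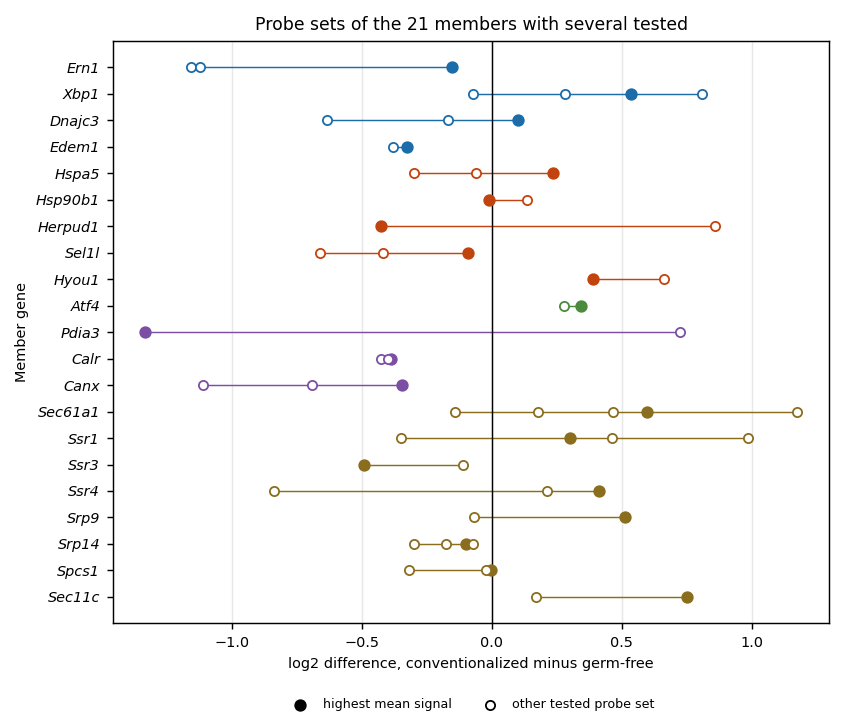
Log2 difference (conventionalized minus germ-free) of every tested probe set of the 21 members with more than 1, filled where it has the gene's highest mean signal. Pdia3 and Herpud1 span 0 widely, from -1.34 to 0.72 and from -0.43 to 0.86, whereas the 3 Calr probe sets lie between -0.43 and -0.39.

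Further steps of the pathway were covered by 89 tested genes outside the members, of which none was called higher or lower by limma. Their median difference was -0.02, with 44 above 0 and 45 below, and 9 had an unadjusted p under 0.05. Both conventionalized arrays were higher for 19 of them and lower for 19, or 21.3% each way, beside 15.9% and 16.1% of all genes.

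Folding enzymes lay mostly above 0, with 10 of 14 and a median of 0.18. Without conventionalized replicate 1 there were 7 of 14 above 0 and the median was 0.06, and without conventionalized replicate 2 it was 0.42. The largest difference was that of Agr2, a disulfide isomerase required for mucin production, at 9219.4 and 7489.0 in conventionalized cells and 3741.2 and 5346.1 in germ-free cells (log2 0.89 ± 0.50). Agr2 is also abundant in goblet cells. Of the 6 goblet cell markers 4 were above 0, from 0.17 for Tff3 to 1.65 for Zg16, while Muc2 differed by -0.34 and Clca1 by -1.29, with a median of 0.32. The part of goblet cells in the Agr2 values was not tested. In the targeting and translocation genes 11 of 15 were above 0, with a median of 0.20 that was -0.06 without germ-free replicate 1. Tram2, a translocon-associated protein, had the largest difference there, at 339.1 and 56.2 in conventionalized cells and 442.5 and 301.2 in germ-free cells (log2 -1.14).

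ER-associated degradation genes had 5 of 13 above 0 and a median of -0.07, or -0.30 without germ-free replicate 1. Ube2j1, a ubiquitin-conjugating enzyme of the ER membrane, read 490.9 and 52.4 in conventionalized cells and 540.1 and 763.5 in germ-free cells (log2 -1.68 ± 0.51, limma adjusted p = 0.142). Its conventionalized duplicates thus differed far more than its germ-free ones. Vcp, the ATPase that extracts ubiquitinated proteins from the membrane and was picked after its values were seen, read 2688.3 and 2426.8 in conventionalized cells and 900.7 and 1373.2 in germ-free cells (log2 1.18 ± 0.42, limma adjusted p = 0.384).

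N-glycosylation genes were evenly divided, with 5 of 10 above 0 and a median of 0.07, or -0.20 without germ-free replicate 1 and 0.24 without replicate 2. Prkcsh, the beta subunit of glucosidase II, read 299.4 and 47.0 in conventionalized cells and 353.3 and 341.6 in germ-free cells (log2 -1.23). ER to Golgi transport genes had 10 of 21 above 0 and a median of -0.15, which was 0.11 with 12 of 21 above 0 when germ-free replicate 2 was left out. Kdelr3, a receptor that returns escaped ER proteins, read 352.3 and 482.5 in conventionalized cells and 114.1 and 225.9 in germ-free cells (log2 1.20 ± 0.56), and its relatives Kdelr1 and Kdelr2 differed by -0.36 and 0.01.

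**Figure D5:**
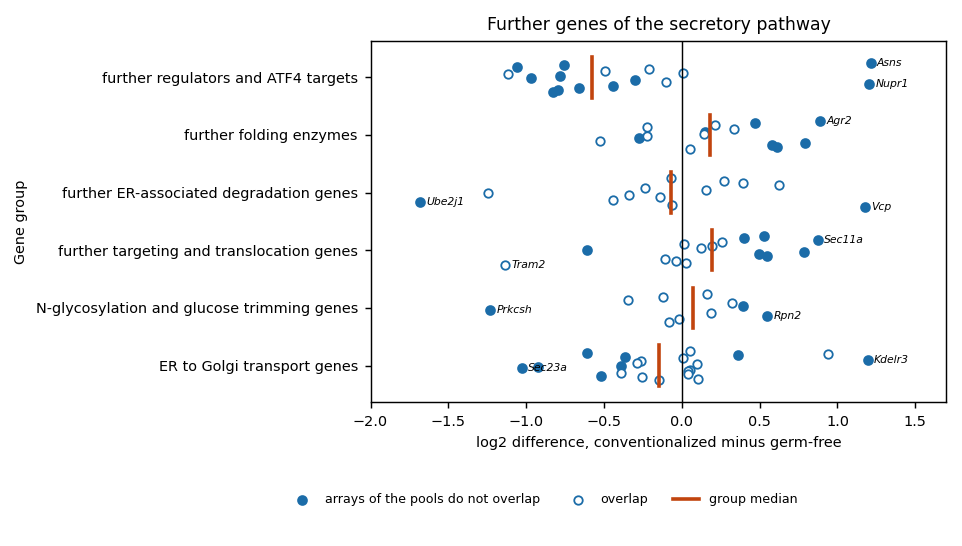
Log2 difference (conventionalized minus germ-free) of 89 tested secretory pathway genes outside the members, in 6 groups, filled where the arrays of the pools do not overlap. Red bars are group medians, from -0.58 for further regulators and ATF4 targets to 0.20 for further targeting and translocation genes; no gene was called.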

How the data were processed

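The authors deposited linear signal intensities, 1 for each probe set of each array, from Affymetrix Mouse430_2 arrays (chip type per the file headers). The deposited intensity columns share a mean of 250 after trimming 2% at each end, so they were used as already scaled; the software is not given in the sources used here. Intensities became log2(intensity + 32), 32 being the power of 2 above the 20th percentile, which understates differences of dim probe sets. The deposited table held 45101 probe sets. Those with a mean above 113.9, without 64 controls, were tested (22491) with limma 3.58.1 in R 4.3.3 (variance trend, threshold of adjusted p 0.05). The prior degrees of freedom were infinite, so each SE follows from the mean signal alone. The fit was tested on simulated data. With 4 arrays an exact permutation test cannot go below p = 0.333.

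Gene names came from the platform annotation: 34958 probe sets named 1 gene, 932 several and 9211 none, and 34754 of the first kind matched a RefSeq gene of GRCm38.p6. Signals of different probe sets depend on their probes and were not ranked against each other. The members, the role groups and the further gene lists were chosen with earlier results of these data known. Values on every array are given for the sensors, the transcription factors, Hspa5, Hsp90b1, Calr, Sec61b, Sec11c, and the highest-signal member and the largest difference of each group. Alternatives covered the pseudocount, filter, scaling, variance model, replicate block, probe set and each array left out.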

Additional observations from a re-analysis of the deposited data

How the results depend on the processing

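Limits come first from the design: 2 amplifications of 1 pool per group leave the spread between mice unmeasured, and the number of arrays limits the precision. No member was called in any of the alternatives run, including all 74 tested probe sets of member genes. The lowest limma adjusted p of a member in any of them was 0.156, without conventionalized replicate 1. Without the variance trend and with the fixed prior, 0 members had an unadjusted p under 0.05.

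Calls over all probe sets, 75 in all, numbered 33 after quantile normalization. Median centring gave 27, of which 6 were higher and 21 lower, against 27 higher and 48 lower in the original. Without the variance trend limma made 0 calls (975 unadjusted p under 0.05), and 0 when the prior was fixed at 4 degrees of freedom (464). Leaving out 1 array gave 41 to 213 calls. The cause of these shifts was not tested. With the replicate block there were 30 calls; the labels do not say that the aliquot numbers pair anything, and same-numbered deviations correlated at -0.13. A crossed replicate block, added after seeing the data, gave 228 calls, none of them a member.

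The members' median difference of -0.01 was lowest, at -0.30, when germ-free replicate 1 was left out and highest, at 0.28, when replicate 2 was. It was 0.04 with quantile normalization, -0.05 with median centring and -0.07 over all tested probe sets of the members.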
